A study of Rattus norvegicus with 10 samples.

Results

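The mitochondrial carriers of the Slc25 family were described in the arcuate nucleus of the hypothalamus (ARC) of Wistar rat dams at parturition. The members were found by name, as the genes whose symbol begins with Slc25a and a number, with 1 such symbol set aside. This gave 36 genes, all protein-coding, of the 12828 genes in the authors' table. According to the methods, genes with very few reads were filtered out. In what follows "all genes" means these 12828 genes, and not all genes of the rat. The study sequenced poly-A RNA from 10 dams, 5 fed a diet with 5X folic acid (5X-FA) and 5 fed a diet with 5X methylfolate (5X-MTHF) during pregnancy. All were mother rats of the same strain, collected when they gave birth, and the age of the dams is not given in the labels. The ARC was cut out by hand from frozen slices, so that tissue next to it could be part of a sample.

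The level given for each gene is 1 value for the whole study, the authors' average log2 CPM (CPM is the number of counted reads after scaling each library to the same total) over all libraries. From its heading and its 1 value per gene, it was taken to pool the 5X-FA and the 5X-MTHF dams. The per-dam columns of the table carry no name that matches a sample and were not used. No carrier was therefore compared between the diets, and no spread between dams is given. A mean or spread over all these columns would have needed no match to a dam and was not computed. The exact depth of each library was not obtained, since the study states only an approximate depth for all samples. CPM is not adjusted for transcript length, and no transcript lengths were at hand. The order of the carriers below is therefore an order of reads, in which a longer transcript collects more reads than a shorter one at the same number of molecules.

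Slc25 proteins are the main door through the inner mitochondrial membrane, which is closed to most charged molecules. Most of them exchange one small molecule for another across it: ADP for ATP, aspartate for glutamate, malate for oxoglutarate, or a cofactor for its spent form. They are made in the cytosol from nuclear genes, pass the outer membrane through the TOM complex and are inserted into the inner membrane by the TIM22 complex. In the brain they supply ATP to synapses and carry reducing equivalents and glutamate between the cytosol and the mitochondrial matrix.

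By rank the 36 carriers spread widely, from *Slc25a2*, above 3.80% of all genes, to *Slc25a4*, above 98.5%. Their average log2 CPM ran from 1.34 for *Slc25a2* to 9.02 for *Slc25a4*, with a median of 5.14, where all 12828 genes had a median of 4.94 and a range from -2.07 to 14.56. Of the carriers, 19 lay above the median of all genes and 17 below it. Above the upper quartile of all genes lay 8 carriers and under the lower quartile lay 10. The family, meaning the 36 genes found by name, made up 0.281% of the genes and 0.25% of the summed average CPM. *Mtch1* (519 CPM), *Mtch2* and *Ucp2*, listed as carriers named outside Slc25, had 633 CPM in sum and enter none of its shares. The family's reads were unevenly shared. *Slc25a4* and *Slc25a3* alone gave 35.1% of the summed average CPM of the family, the first 5 carriers gave 55.4%, and the last 20 gave 14.3%.

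**Figure D1:**
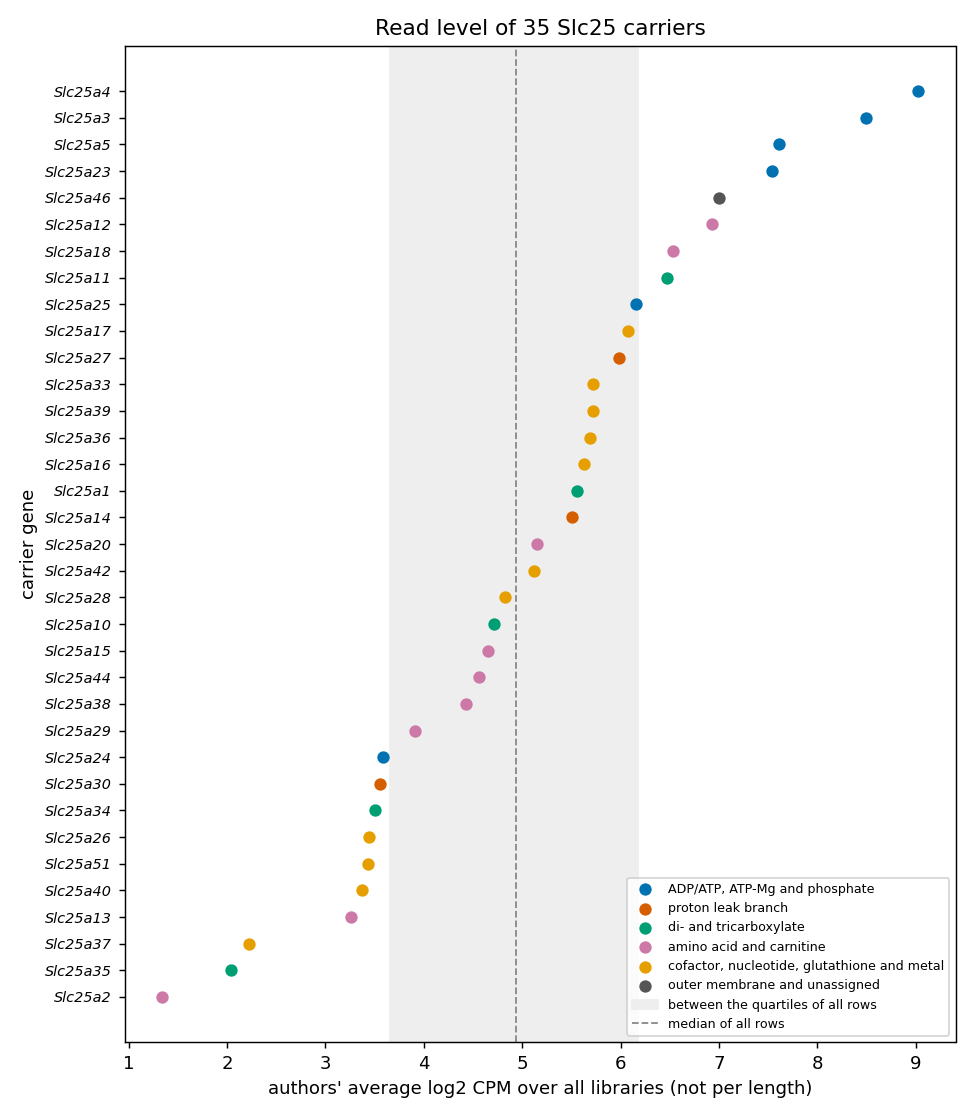
Authors' average log2 CPM over all libraries (horizontal axis) of 35 of the Slc25 carriers (vertical axis, ordered by reads), coloured by role; the grey band runs between the quartiles of all 12828 genes and the dashed line is their median, 4.94. There is 1 value per gene and no error bar, because no value per dam was used. *Slc25a4*, *Slc25a3*, *Slc25a5* and *Slc25a23* stand at the right, and *Slc25a37*, *Slc25a35* and *Slc25a2* at the left.

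The carriers of the energy currency itself led the order. *Slc25a4* encodes an ADP/ATP carrier (ANT1), which brings ADP into the matrix and sends ATP out. It lies on chromosome 16 of Rnor_6.0 from 49266903 to 49270698, and its average was 519 CPM, above 98.5% of all genes. *Slc25a3*, the phosphate carrier that supplies ATP synthase, lies on chromosome 7 from 31816602 to 31824071 and had an average of 361 CPM. *Slc25a5*, a second ADP/ATP carrier (ANT2), lies on chromosome X from 123404518 to 123407645 and had an average of 195 CPM. The RefSeq gene list of GRCr8 holds 9 named pseudogenes of *Slc25a5* and 1 gene named as its like, and 1 and 2 named pseudogenes of *Slc25a4* and *Slc25a3*. Reads that fit both a gene and its copies may be lost or split in counting, so that the values of these genes, and of *Slc25a5* above all, are uncertain to that extent. The same limit holds for *Slc25a13*, *Slc25a15*, *Slc25a33*, *Slc25a36* and *Slc25a38*, with 1 named pseudogene each. It also holds for *Slc25a36* and *Slc25a51* through 1 gene each named as their like.

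The ATP-Mg/phosphate carriers are calcium-sensing proteins that change the adenine nucleotide content of the matrix. *Slc25a23*, on chromosome 9 from 9988055 to 10001962, had an average log2 CPM of 7.53. *Slc25a25* had 6.15 and *Slc25a24* had 3.59. These paralogs lay far apart in reads: *Slc25a23* was above 92.0% of all genes, *Slc25a25* above 74.4% and *Slc25a24* above 24.1%. Of the 10 symbols listed for nucleotide and phosphate exchange, 6 had a value, and these 6 gave 53.7% of the summed average CPM of the family. *Slc25a6*, *Slc25a31*, *Slc25a41* and *Slc25a43* had no value under these symbols and were not analysed here. The same holds for the other symbols given below as not analysed.

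**Figure D2:**
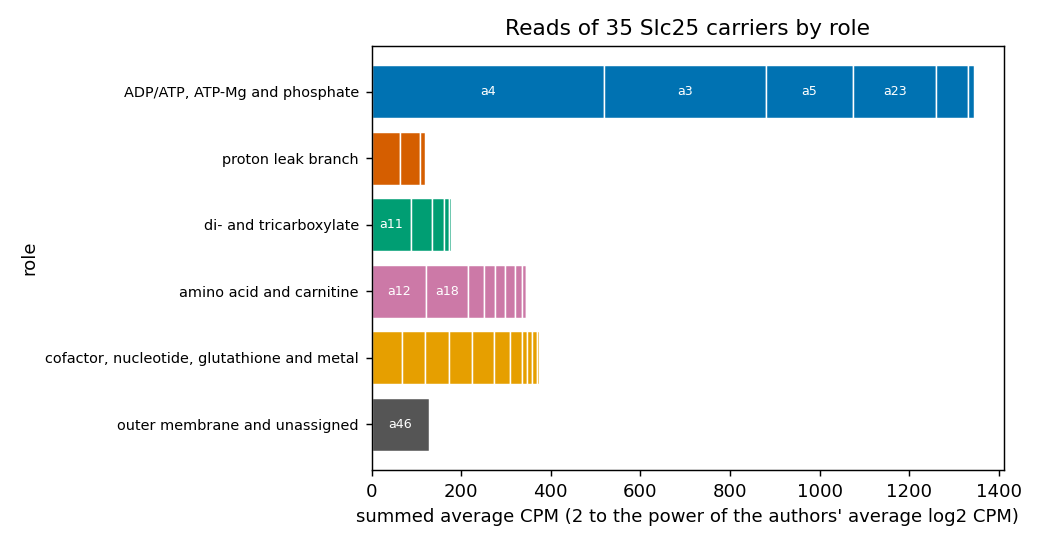
Summed average CPM (horizontal axis, starting at 0) of 35 Slc25 carriers in 6 roles (vertical axis); each segment is 1 gene, and genes over 80 CPM are marked by the end of their symbol. The nucleotide and phosphate exchangers add up to 1344 CPM, the highest sum of the 6 roles.

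Next in the order were a protein of the outer membrane and the carriers of glutamate and aspartate. *Slc25a46*, which sits in the outer membrane and takes part in mitochondrial fusion and fission, had an average of 128 CPM. Its span on chromosome 18 from 24369125 to 24397551 overlaps that of *Sap130* in the table. The libraries keep the strand of the RNA according to the methods, but whether the counting used it is not given in the sources used here, so that reads in the shared part are uncertain. *Slc25a12* (aralar), the aspartate/glutamate carrier of the malate-aspartate shuttle in neurons, lies on chromosome 3 from 57882370 to 57957346 and had an average of 122 CPM. Its paralog *Slc25a13* (citrin), the form best known from liver, lies on chromosome 4 from 31608269 to 31730386 and had an average of 9.61 CPM. *Slc25a12* was above 86.0% of all genes and *Slc25a13* above 19.2%. *Slc25a18*, a glutamate carrier found in astrocytes, had an average of 92.6 CPM. The other glutamate carrier, *Slc25a22*, had no value under that symbol and was not analysed here.

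The other amino acid and carnitine carriers all had fewer reads than *Slc25a12* and *Slc25a18*. *Slc25a20*, which brings acylcarnitines in for fatty acid oxidation, had an average log2 CPM of 5.15. *Slc25a15*, the ornithine carrier of the urea cycle, had 4.65, and *Slc25a2*, its paralog for ornithine and other basic amino acids, had 1.34. *Slc25a2* had the lowest value of the family, 2.54 CPM, and was above 3.80% of all genes. *Slc25a44*, which carries branched-chain amino acids, had 4.56, *Slc25a38*, the glycine carrier of haem synthesis, had 4.43, and *Slc25a29*, another carrier of basic amino acids, had 3.91. In all, 9 of 13 symbols listed in this role had a value and gave 13.9% of the summed average CPM of the family, and 3 of the 9 lay above the median of all genes. *Slc25a45*, *Slc25a47* and *Slc25a48* were not analysed here.

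Among the di- and tricarboxylate carriers, *Slc25a11*, the oxoglutarate/malate carrier, came first with an average of 88.8 CPM. It is the partner of *Slc25a12* in the malate-aspartate shuttle, and the averages of both were above the upper quartile of all genes. *Slc25a1*, the citrate carrier that exports carbon for fatty acid and sterol synthesis, had 47.0 CPM, and *Slc25a10*, the dicarboxylate carrier, had 26.2 CPM. *Slc25a34* and *Slc25a35*, whose substrates are less well known, had 11.4 and 4.11 CPM. The span of *Slc25a35* overlaps that of *Rangrf*, so that its value is uncertain in the same way. In this role 5 of 6 symbols had a value, and *Slc25a21* was not analysed here.

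The branch of the uncoupling proteins, a group first known for letting protons back into the matrix, was represented by 3 members with an Slc25 name. *Slc25a27* (UCP4) and *Slc25a14* (UCP5), forms known from brain, had an average log2 CPM of 5.98 and 5.50, and *Slc25a30*, a form first described in kidney, had 3.56. *Ucp2*, which belongs to the same branch but carries another name, had 5.32, while *Ucp1* and *Ucp3* were not analysed here. The 3 members with an Slc25 name, without *Ucp2*, gave 4.80% of the summed average CPM of the family.

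The carriers of cofactors, nucleotides, glutathione and metals were the most numerous. Of 13 listed symbols 12 had a value, 6 of them above the median of all genes, and they gave 15.5% of the summed average CPM of the family. *Slc25a17*, which works in the peroxisome and not in the mitochondrion, led them with an average of 67.5 CPM. The pyrimidine nucleotide carriers *Slc25a33* and *Slc25a36* had 52.7 and 51.5 CPM. Of the pair of glutathione carriers, *Slc25a39* had 52.5 CPM and *Slc25a40* had 10.4 CPM. GRCr8 holds 8 named pseudogenes of *Slc25a39*, and the span of *Slc25a40* overlaps that of *Rundc3b*, so that both values are uncertain in counting.

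*Slc25a26*, which brings the methyl donor S-adenosylmethionine into the matrix, lies on chromosome 4 from 126522326 to 126615314 and had an average of 10.9 CPM, above 22.0% of all genes. The coenzyme A carrier *Slc25a42* had 34.8 CPM and *Slc25a16*, tied to coenzyme A as well, had 49.5 CPM. The NAD carrier *Slc25a51* had 10.8 CPM. Of the iron carriers, *Slc25a28* (mitoferrin 2), the form of most tissues, had 28.3 CPM and *Slc25a37* (mitoferrin 1), the form of developing red cells, had 4.69 CPM. Red cell genes were present in the same averages, with *Hbb* at 497 CPM and *Alas2* at 15.8 CPM, and their part in the value of *Slc25a37* was not tested.

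Genes of the wider pathway were taken from lists matched to the same table. All 13 genes listed for carrier import had a value, with a median average log2 CPM of 5.11 against 5.14 for the carriers, and 8 of them lay above the median of all genes. *Tomm20* and *Tomm70*, receptors of the outer membrane that bind incoming proteins, had 7.29 and 6.73, and *Timm29*, a subunit of TIM22, had 6.49. *Timm22*, its channel, had 5.11. All 16 genes listed for other mitochondrial membrane transport had a value too, with a median of 6.42, and 14 lay above the median of all genes. The pores of the outer membrane *Vdac1*, *Vdac3* and *Vdac2* had averages of 271, 261 and 257 CPM, so that their values lay closer together than those of the ADP/ATP carriers *Slc25a4* and *Slc25a5*. *Mtch1* and *Mtch2*, outer membrane proteins built on the carrier fold but named outside Slc25, had 9.02 and 6.21.

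The labelled tissue was checked by markers in the same averages. Of 7 ARC markers 6 had a value, from 0.08 (*Kiss1*) to 6.02 (*Cartpt*) in average log2 CPM, with *Pomc* at 4.67 and *Agrp* at 1.42. The marker without a value was *Npy*. Only 1 of the 6 lay above the median of all genes, and the median of the 6 was 2.88. Markers of striatum ran from 4.26 (*Adora2a*) to 7.07 (*Ppp1r1b*) in 4 of 4 genes, and of cortex and hippocampus from 2.40 (*Neurod6*) to 7.48 (*Nrgn*) in 3 of 4. Of these, 3 of the 4 for striatum and 2 of the 3 for cortex and hippocampus lay above the median of all genes. Neuron markers (4 of 4) ran from 6.14 to 10.44, astrocyte markers (4 of 4) from 5.51 to 10.22 and oligodendrocyte markers (4 of 4) from 7.26 to 12.59. Markers of tanycytes (3 of 4) ran from 0.08 (*Rax*) to 7.32 (*Vim*). Those of microglia (4 of 4) ran from 3.83 (*Aif1*) to 6.82 (*Csf1r*), and 1 of these 4 lay above the median of all genes. Markers of endothelium (2 of 3) had 5.77 and 6.28, those of choroid plexus (3 of 3) ran from 0.83 to 3.06, and that of skeletal muscle (1 of 3) had 2.99. The carrier levels are averages over all these cells. In such bulk samples fewer cells of a type and less RNA per cell cannot be told apart.

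The promoters of the carriers were read from RefSeq (GRCr8), as windows of 300 bases, 250 before the annotated start and 50 after it. A window was matched by symbol for 30 of the 36 carriers. The median share of G and C in the 30 windows was 62.8%, and the median ratio of observed to expected CpG was 0.77, against 0.76 in the 10623 windows of genes in the table and 0.39 in all 33469 windows. A CpG is a C followed by a G, the site of most DNA methylation, and a window with many of them is typical of genes that are on in most cells. The family was close to the other genes of the table in this measure. Individual carriers were not alike: *Slc25a34* and *Slc25a18* had the lowest ratios, 0.11 and 0.12, the next was *Slc25a15* with 0.37, and *Slc25a40* had the highest, 1.10.

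To show this range, the last 100 bases before the start are given for 4 carriers, 5′ to 3′ on the strand of the gene, with each CpG in capitals. They are the carrier with the most reads, the aspartate/glutamate carrier of neurons, and the pair with the lowest ratios. In GRCr8 they lie at chr16:52805421-52805520 (plus strand), chr3:76599537-76599636 (minus strand), chr4:155673069-155673168 (plus strand) and chr5:159219893-159219992 (minus strand), in the order given.
Slc25a4: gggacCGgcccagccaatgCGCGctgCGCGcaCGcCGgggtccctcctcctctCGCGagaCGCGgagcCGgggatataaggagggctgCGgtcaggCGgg
Slc25a12: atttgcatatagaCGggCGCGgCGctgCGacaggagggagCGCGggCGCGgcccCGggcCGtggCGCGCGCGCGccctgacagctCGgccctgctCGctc
Slc25a18: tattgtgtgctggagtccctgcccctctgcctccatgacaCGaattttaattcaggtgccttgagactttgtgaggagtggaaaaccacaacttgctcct
Slc25a34: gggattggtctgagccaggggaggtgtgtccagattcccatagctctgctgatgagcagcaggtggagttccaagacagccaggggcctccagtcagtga

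These stretches held 14 CpGs for *Slc25a4*, 18 for *Slc25a12*, 1 for *Slc25a18* and 0 for *Slc25a34*. *Slc25a12* and *Slc25a18*, both carriers of glutamate and both above the upper quartile of all genes in reads, thus differed widely in CpG content. RefSeq gives 1 start per gene here, and whether this start is the one used in the ARC was not tested.

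**Figure D3:**
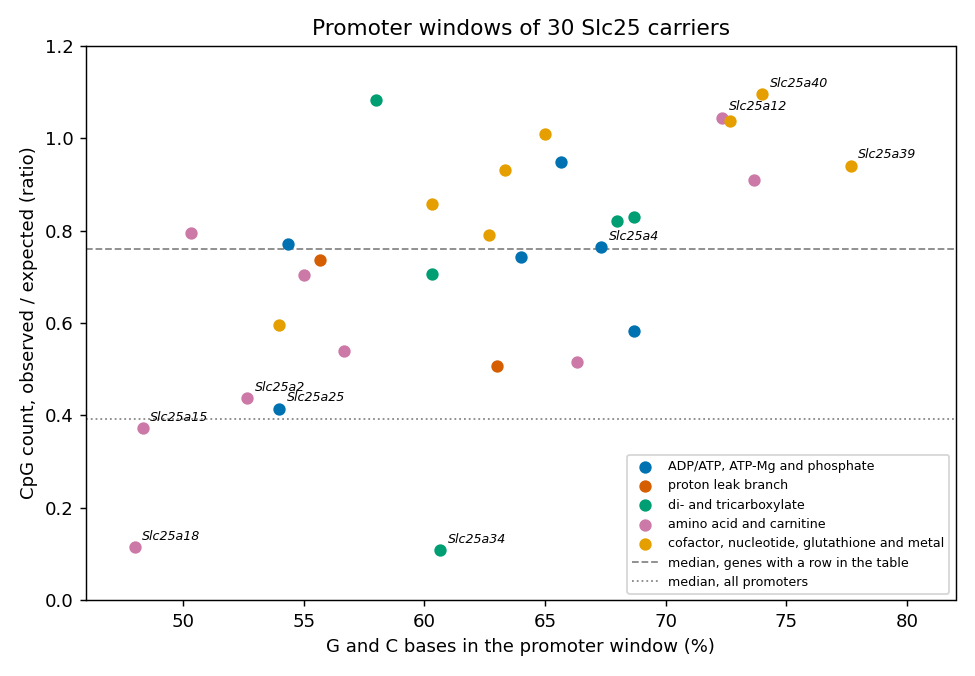
Ratio of observed to expected CpG (vertical axis) against the share of G and C bases in percent (horizontal axis) in the promoter windows of 30 Slc25 carriers, 1 point per gene, coloured by role; the dashed line is the median of genes in the table, 0.76, and the dotted line that of all windows, 0.39. *Slc25a18* and *Slc25a34* sit at the bottom of the plot, apart from the other carriers.

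A few short motifs were searched on both strands of the windows. The Sp/KLF motif GGGCGG was found in 24 of the 30 carrier windows (80%), in 61.7% of the windows of genes in the table and in 33.1% of all windows. The ETS motif CCGGAAG was found in 6 (20%), against 16.2% and 8.75%. The TATA box, searched only as the exact letters TATAAA, was found in 1 (3.33%), that of *Slc25a38*, against 6.72% and 14.2%. Near matches were not counted, such as the tataag in the stretch of *Slc25a4* shown above. The core of the NRF1 motif, GCATGCGC, was found in 1 (3.33%), that of *Slc25a13*, against 4.90% and 2.47%, and the ERR motif TCAAGGTCA in 0, against 0.292% and 0.433%. No motif searched contains another. A match is a run of letters and is not evidence that a factor binds there.

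The cAMP response element TGACGTCA, the rarest in all windows of the motifs that the carriers held, was found in 2 windows (6.67%), against 3.01% of the windows of genes in the table and 1.83% of all windows. It is shown in capitals with 25 bases on each side, at chr3:36116707-36116764 and chr5:165503025-165503082 of GRCr8, both on the minus strand.
Slc25a25: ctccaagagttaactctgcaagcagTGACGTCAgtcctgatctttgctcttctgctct
Slc25a33: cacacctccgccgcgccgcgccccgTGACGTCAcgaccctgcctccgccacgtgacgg

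The element begins 158 bases before the start of *Slc25a25* and 84 bases before that of *Slc25a33*. The averages of these carriers, 71.2 and 52.7 CPM, lay between the quartiles of all genes.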

How the data were processed

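The ARC transcriptome of 10 dams, 5 per diet, was measured by RNA-seq. As stated in the methods of the study and in the submitters' processing notes, reads were trimmed by the authors with Trim Galore 0.5.0, aligned with STAR 2.6.0c to Rnor_6.0 with Ensembl gene models and counted with HTSeq 0.6.1p2. The authors deposited 1 table, and its average log2 CPM over all libraries is the only level used here, so that it has no SD and no n. The column is headed only as log CPM, with 1 value per gene and no sample name. That it averages over all libraries was inferred from this. The tool behind this column is not given in the sources used here. The table also holds the authors' own comparison of the diets (a fold change, a test statistic and p-values), which was not used, and 10 per-sample columns headed by numbers alone, which match no label and were not used.

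From the table, CPM was computed as 2 to the power of the average, and summed over 12828 genes. The percentage of genes below each carrier was computed over all 12828 genes. Carriers were grouped by hand-written role lists. The members and lists were chosen with earlier results of these data known. Of the 36 members, all of which enter the counts and sums, 35 are named and 1 is not reported here. Coordinates are given for some of them, chosen after their values were seen. Also named are the first members by reads of each pathway list; *Timm22* and the markers given with values were named after their values were seen. A planned diet test (limma or a count test, by unit), with its alternatives, could not be run, nor could a choice of pairs by protein identity. The plan also set levels of different genes to be compared per length only. This was not kept, and the orders given here are of CPM. Genes were matched by symbol to RefSeq promoters and pseudogene names of GRCr8, and no GRCr8 coordinate was used with the table. Motif search and percentages were checked on made-up data. The calculations ran in Python 3.11.15 (pandas 2.3.3, numpy 2.4.6 for the tables and matplotlib 3.10.9 for the figures).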

Additional observations from a re-analysis of the deposited data

How the results depend on the processing

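The place of the carriers in the table, taken as the percentage of genes below the median of the 36 carriers, was 53.9% over all 12828 genes. It was 52.7% over the 12383 protein-coding genes, 52.6% over the 12462 genes whose average was 1 or more in log2 CPM, and 53.9% with repeated symbols left out. The settings cover fewer genes by construction. All 36 carriers stayed in under each setting, and their median average log2 CPM was 5.14 throughout. Not run were levels per coding length and all alternatives of the diet test, leaving out each dam among them. No lengths were at hand, and the per-sample columns were not used. No paired analysis was possible because the per-sample columns carry no replicate number that matches a label and no test was made. The depth of each library and the spread between dams, which would set the error of each level, were not obtained.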

Other observations

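In Rnor_6.0 the 36 carriers lie on 16 chromosomes and do not form a cluster. Chromosome 10 holds the most, 5 genes, and chromosome 4 holds 4. Among the 35 named carriers, the closest pair on one chromosome, *Slc25a11* and *Slc25a35* on chromosome 10, is 1.71 Mb apart. The nearest other gene of the table is often much closer: *Rnf167* is 0.294 kb from *Slc25a11*, *Rundc3a* is 0.730 kb from *Slc25a39* and *Atp6v1e1* is 0.975 kb from *Slc25a18*. Of *Slc25a39* and *Slc25a40*, the pair of glutathione carriers, the first lies next to *Rundc3a* and the second overlaps *Rundc3b*, so that both have a member of the same small gene family as their nearest neighbour on different chromosomes. These pairs were picked after their distances were seen and are values, with no test.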
